A study of Homo sapiens with 4 samples.

Results

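The genes described here are the kelch-BTB genes KLHL and KBTBD, which encode substrate adaptors of CUL3 ubiquitin ligases. They were chosen by name: every gene whose symbol is KLHL or KBTBD followed by digits and that has a probe set with this as its single symbol. This gave 45 of the 18132 genes on the array, with 107 probe sets, and each gene took its brightest probe set over all arrays. The cells were SCC-9, an established human line of tongue squamous carcinoma, which received either miR-585-5p mimics at 30 nM or miR-NC, a control small RNA. Total RNA was taken 36 hours after transfection and hybridised to PrimeView arrays, 2 for the mimic and 2 for miR-NC. The study is thus on 1 cell line, and both groups were transfected. Whether each array stands for its own culture is not stated in the labels. The p-values therefore cover only the spread between these samples, which may be technical, and the number of arrays limits the precision. Uptake of the mimic was not measured, since the annotation used names no probe set for miR-585.

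A kelch-BTB protein binds the scaffold CUL3 through its BTB domain and a substrate through its kelch repeats. CUL3 in turn carries the RING protein RBX1 and an E2 enzyme, so that the adaptor decides which protein receives ubiquitin. The family marks very different proteins, among them mitotic kinases, the WNK kinases of ion transport, keratins and muscle proteins, and in keratinocytes KLHL24 sets the level of keratin 14. A microRNA pairs with messenger RNAs mostly through its seed, the bases near its 5' end, and lowers their stability or translation.

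The sequences behind the comparison are shown first. The mature miR-585-5p lies on the minus strand of human chromosome 5 (chr5:169263649-169263670, GRCh38.p14, RefSeq). Its seed, bases 2 to 8, is in capitals, and 0 of the other mature human microRNAs among the 2370 names in the table share it.
hsa-miR-585-5p: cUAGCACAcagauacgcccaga
The 250 bases before the RefSeq start are given for the genes with the largest rise, KLHL8, and the largest falls, KLHL7 and KLHL3, since these set the range of the family. They lie at chr4:87220619-87220868 on the minus strand, chr7:23105535-23105784 on the plus strand and chr5:137736090-137736339 on the minus strand (all GRCh38.p14). Capitals mark GC boxes, the letters GGGCGG on either strand.
KLHL8: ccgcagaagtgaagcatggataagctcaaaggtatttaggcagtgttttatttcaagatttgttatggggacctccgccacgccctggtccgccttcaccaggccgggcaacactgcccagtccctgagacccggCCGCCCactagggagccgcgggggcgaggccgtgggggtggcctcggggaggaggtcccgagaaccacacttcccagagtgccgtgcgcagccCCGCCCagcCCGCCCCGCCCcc
KLHL7: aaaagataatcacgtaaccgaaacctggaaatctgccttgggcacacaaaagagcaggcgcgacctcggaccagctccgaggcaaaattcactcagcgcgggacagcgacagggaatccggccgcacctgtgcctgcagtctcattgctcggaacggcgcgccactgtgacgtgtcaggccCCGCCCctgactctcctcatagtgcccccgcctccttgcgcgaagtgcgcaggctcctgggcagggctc
KLHL3: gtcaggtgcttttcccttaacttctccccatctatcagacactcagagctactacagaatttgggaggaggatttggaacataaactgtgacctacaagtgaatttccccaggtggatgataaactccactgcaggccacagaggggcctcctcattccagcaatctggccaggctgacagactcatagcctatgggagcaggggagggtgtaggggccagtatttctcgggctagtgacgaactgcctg
The KLHL8 window held 4 GC boxes at 66.4% GC, the KLHL7 window 1 at 62.4% GC and the KLHL3 window 0 at 52.0% GC. These genes have 2, 2 and 3 starts in the table, and 1 start each is shown. Of the 45 genes 37 had an entry, with 48 windows. A GC box was in 43.8% of these windows, against 53.7% of the 22199 windows of coding genes. The letters CCAAT were in 12 of the family's 48 windows, against 32.7% of all. The cell cycle element TTTGAA was in 10.4%, against 11.0%. An E2F-like motif (TTTGGCGC, TTTCCCGC, TTTCGCGC or TTTGCCGC) was in 6.25%, the windows of KBTBD6, KLHL36 and KLHL42, against 3.48% of all. Both strands were searched for every motif. None of the windows printed here held the last 3 motifs. Among the windows not printed, CCAAT was found for KLHL7 and KLHL3, and TTTGAA for KLHL3.

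The mimic arrays had median intensities of 31.1 and 30.6, against 31.3 and 30.7 for miR-NC. Array controls with no human target reached 14.2 and 15.0 with the mimic and 16.8 and 14.2 with miR-NC, and serve as background here. All 7 squamous epithelial markers analysed here, KRT5, KRT14, DSG3, PKP1, CDH1, EPCAM and SFN, were above background on every array. Their summed intensities were 22009 and 21059 with the mimic and 20176 and 20872 with miR-NC. All 7 changed (limma adjusted p under 0.05), beside 55% of all genes, and they went both ways. KRT14, EPCAM and KRT5 rose, with log2 changes of 0.97, 0.59 and 0.24, that of KRT5 less than the spike difference. CDH1, DSG3, SFN and PKP1 fell, with log2 changes of -1.26, -0.45, -0.42 and -0.22. Of 8 skeletal muscle markers, CKM, MYH7, MYH2 and NEB were above it on no array, DES, ACTA1 and TNNT1 were above it on every array, and MYOG on 1 array of each group. TNNT1 read 1868 and 1926 with the mimic and 1650 and 1596 with miR-NC and rose (0.22 ± 0.05, limma adjusted p = 0.00194), though by less than the spike difference. Of 5 blood cell markers, PTPRC and ITGAM were above background on no array and CD3E on both miR-NC arrays only, while CD79A and CD14 were above it on every array. CD14 read 103 and 86.3 with the mimic and 54.9 and 63.3 with miR-NC, and rose by 0.68 ± 0.12 (adjusted p = 6.85e-04). Summed blood cell markers were 160.5 and 141 with the mimic and 122 and 124 with miR-NC. Of 7 stromal and endothelial markers, COL3A1, DCN and CDH5 were above background on no array, and COL1A1, VWF, PECAM1 and PDGFRB on every array. COL1A1 read 18.4 and 18.9 with the mimic and 26.6 and 24.9 with miR-NC, and fell by 0.47 ± 0.13 (adjusted p = 0.0117). The part of these markers in the results was not tested. Bacterial RNAs with a poly(A) tail, put in ahead of labelling, read 0.34 higher (log2) on the mimic arrays, and the hybridization spikes, put in after it, differed by -0.05. As a measure of RNA integrity, GAPDH signal at its 3' end over its 5' end was 1.11 and 1.11 with the mimic and 1.22 and 1.16 with miR-NC. The same ratio for ACTB was 14.3 and 14.3 with the mimic and 14.4 and 13.8 with miR-NC, a strong 3' bias on every array. The part of the spikes or of this bias in the results below was not tested, beyond the scaling to the spikes. In bulk RNA fewer cells of a type and less RNA per cell cannot be told apart.

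Of the 45 genes 37 were bright enough to be tested, and 18 of them changed: 12 rose and 6 fell with the mimic (limma, adjusted p under 0.05 over all 14122 genes tested). These 18 are 48.6% of the genes tested, beside 55% of all genes. The share that rose was 32.4%, beside 28.1% of all genes, and the share that fell was 16.2%, beside 26.9%. The median log2 change was 0.02 in the family and -0.06 in all genes, and the median size of a change was 0.288 and 0.293. The share called and the median thus lay near those of the whole array, and members went both ways. On arrays scaled to the poly(A) spikes every change is 0.34 lower, the median of all genes is -0.40, and 5 members rose while 18 fell. Those 5 were KLHL8, KBTBD11, KLHL11, KLHL15 and KBTBD3. The share of members called on that scale was 62.2%, beside 66.5% of all genes, 1573 of them higher and 7818 lower. The family's median lies 0.08 above that of all genes on either scale, which follows from moving every gene by the same amount. Over the other alternatives this gap ran from 0.002 (filter at the 50th percentile) to 0.129 (second quantile normalization).

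**Figure D1:**
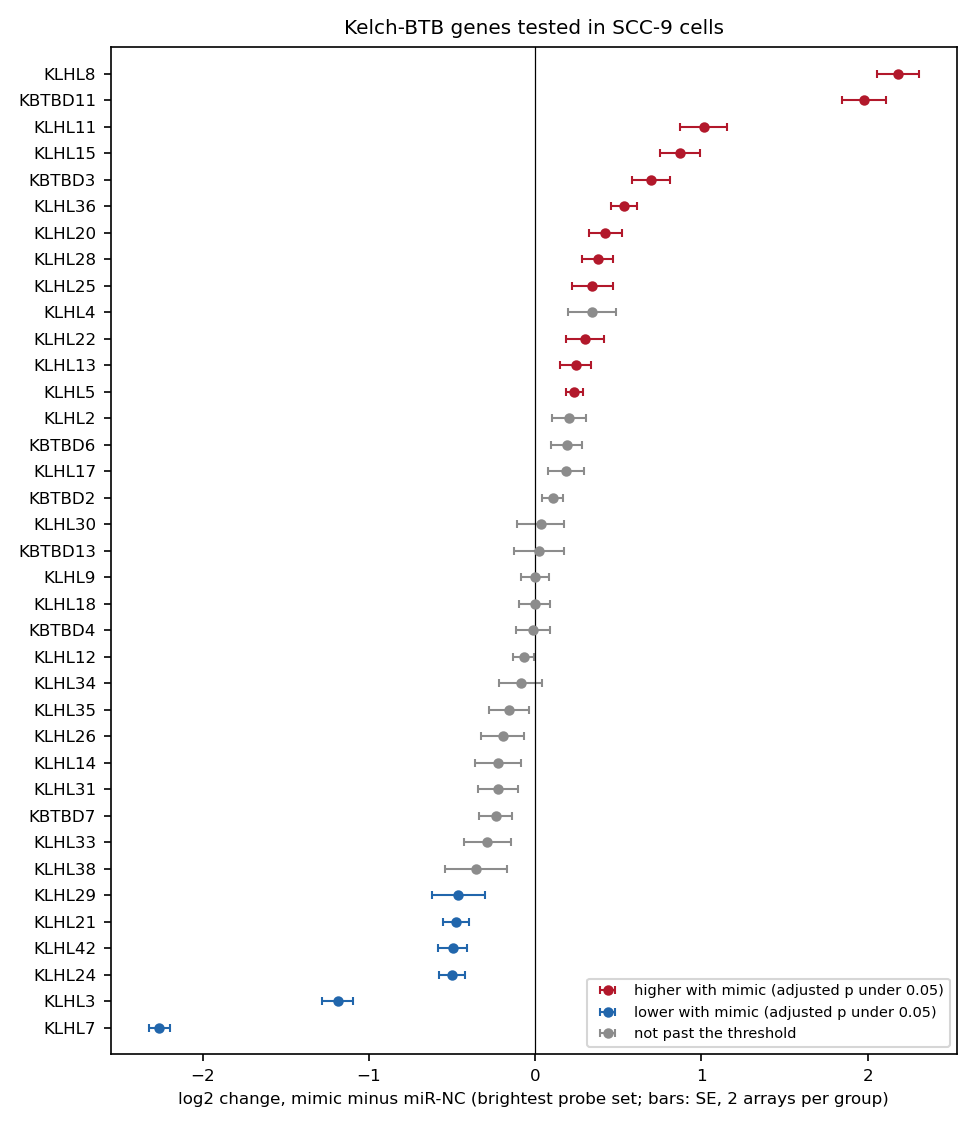
Log2 change, mimic minus miR-NC, of the 37 kelch-BTB genes tested, ordered by change; points are the brightest probe sets and bars are SEs over 2 arrays per group. KLHL8 and KBTBD11 stand at the high end at 2.18 and 1.98 and KLHL7 at the low end at -2.26, while most genes lie near 0; on poly(A) spike scaling all points move left by 0.34, which takes KLHL5, KLHL13 and KLHL22 of the called genes below 0.

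The changes were uneven in size. Fitted changes of at least 2-fold were seen in 5 members, 13.5% of those tested beside 8.16% of all genes: KLHL8, KBTBD11 and KLHL11 rose, and KLHL7 and KLHL3 fell. KLHL11 is among them by its fitted value only, since it was above background on no miR-NC array and its bound is 1.58-fold. KBTBD11 lay near background with miR-NC. Another 11 of the 18 changed by less than 1.5-fold. The arrays of the groups did not overlap in 30 of the 37 genes, or 81.1%, beside 79.4% of all genes.

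KLHL7 fell most. It encodes an adaptor of the nucleus and nucleolus whose known substrates include the uridylyltransferase TUT1 and whose mutations cause retinal degeneration. The mimic arrays read 217 and 207, against 1012 and 1022 for miR-NC. Both mimic arrays were far below both miR-NC arrays. The log2 change was -2.26 ± 0.06 (SE, limma adjusted p = 2.24e-09), or 4.79-fold lower, the 11th lowest of all genes tested. The other probe sets of KLHL7 moved far less. The second read 276 and 269.9 with the mimic against 338 and 394 with miR-NC, a log2 change of -0.42 ± 0.08 (adjusted p = 0.00117 over probe sets). The third read 141 and 154 with the mimic against 144 and 145 with miR-NC, a log2 change of 0.03 ± 0.09 (adjusted p = 0.774). The fourth fell by 0.34 ± 0.11 on the log2 scale (adjusted p = 0.0206), and the fifth was too dim to test. The size of the KLHL7 change therefore depends on the probe set: the mean over all its probe sets gave -0.60. Which transcripts of KLHL7 each probe set covers was not analysed here.

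The other adaptors with nuclear substrates were KBTBD4 and KBTBD8. KBTBD4, known for its link to the CoREST chromatin complex, read 70.2 and 69.9 with the mimic and 67.3 and 74.1 with miR-NC, a change of -0.01 on the log2 scale that did not pass. KBTBD8, an adaptor of neural crest specification, was not bright enough to test. The substrate TUT1 fell, with readings of 73.0 and 68.0 with the mimic and 111 and 93.3 with miR-NC (-0.53 ± 0.11, adjusted p = 0.00199).

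KLHL3 also fell. With its close relative KLHL2 it marks the WNK kinases, which control sodium and potassium chloride cotransporters, and its mutations cause familial hypertension with high potassium. KLHL3 stood at 62.7 and 62.4 with the mimic, against 141 and 144 with miR-NC. The groups were clearly apart, with a log2 change of -1.19 ± 0.09 (limma adjusted p = 1.43e-06), or 2.28-fold lower. All 4 of its tested probe sets fell, by 0.40 to 1.37 on the log2 scale. KLHL2 read 83.5 and 78.2 with the mimic and 72.4 and 67.9 with miR-NC, a log2 change of 0.21 that did not pass. Of the kinases these adaptors act on, WNK1 read 269 and 249 with the mimic and 368 and 353 with miR-NC (-0.48 ± 0.07, adjusted p = 1.97e-04). WNK4 read 25.5 and 25.4 with the mimic and 37.6 and 33.6 with miR-NC (-0.48 ± 0.13, adjusted p = 0.00780). Transcripts of both kinases were thus lower together with that of KLHL3; the arrays measure RNA and not the proteins that the ligases act on.

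KLHL24 is the adaptor of keratin 14, and mutations that stabilise it cause a skin fragility disease. It read 212 and 198 with the mimic and 303 and 277 with miR-NC. The groups did not overlap, and the log2 change was -0.50 ± 0.08 (limma adjusted p = 3.00e-04). A second probe set fell by 0.68 ± 0.09 (adjusted p = 3.56e-05), and the remaining one had a change of -0.21 that did not pass (adjusted p = 0.112). KRT14, the gene of the KLHL24 substrate, is itself a squamous marker. It read 5212 and 4749 with the mimic and 2492 and 2605 with miR-NC (0.97 ± 0.05, adjusted p = 1.05e-07). The only probe set of KRT14 used here is marked as able to bind several transcripts.

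Of 6 adaptors that act on mitotic kinases or microtubules, 2 rose, 2 fell and 2 did not pass, beside 55% of all genes called. KLHL9, KLHL13 and KLHL21 bring CUL3 to Aurora B, KLHL18 to Aurora A and KLHL22 to PLK1, and KLHL42 acts on katanin, which severs microtubules. KLHL21 fell, with readings of 256 and 239.6 with the mimic and 327 and 362 with miR-NC (-0.47 ± 0.08, adjusted p = 3.63e-04). KLHL13 read 109.7 and 117 with the mimic and 93.1 and 98.5 with miR-NC, so that the groups stood close but apart. It rose by 0.24 ± 0.09 (adjusted p = 0.0453), a direction that turned to -0.095 on poly(A) spike scaling. KLHL22 read 66.1 and 60.2 with the mimic and 48.5 and 54.1 with miR-NC. It rose by 0.30 ± 0.11 (adjusted p = 0.0447), a direction that turned to -0.038 on poly(A) spike scaling. The calls of KLHL13 and KLHL22 were also lost without mimic replicate 1, mimic replicate 2 or miR-NC replicate 1, with the mean of their probe sets, with no filter and after a second quantile normalization. KLHL9, at 129 and 132 with the mimic and 128 and 133 with miR-NC, overlapped (0.00, or -0.34 and lower on poly(A) spike scaling), although another of its probe sets fell by 0.27 ± 0.09 (adjusted p = 0.0238). KLHL18 had 152 and 136 with the mimic and 138 and 150.1 with miR-NC, and overlapped as well (-0.00).

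KLHL42 gave opposite answers by probe set. Its brightest, which is marked as able to bind several transcripts, read 269 and 228 with the mimic and 347 and 351.4 with miR-NC (-0.50 ± 0.08, adjusted p = 4.95e-04). Its second read 177 and 166 with the mimic and 107 and 114 with miR-NC, and rose by 0.64 ± 0.09 (adjusted p = 7.89e-05 over probe sets). The remaining ones had changes of -0.29 and 0.25, neither past the threshold. The mean over its probe sets was 0.025, so no single direction holds for KLHL42. It was the only member of the 23 with several tested probe sets in which calls went both ways.

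The kinases behind these adaptors were higher with the mimic. AURKA, which encodes Aurora A, read 4846 and 5020 with the mimic and 1554 and 1573 with miR-NC (1.66 ± 0.04, adjusted p = 2.06e-09). AURKB, at 539.8 and 565 with the mimic and 267 and 291 with miR-NC, rose by 0.99 ± 0.07 (adjusted p = 7.65e-07). PLK1, at 74.9 and 80.6 with the mimic and 43.5 and 36.0 with miR-NC, rose by 0.97 ± 0.12 (adjusted p = 5.53e-05). All of them stayed higher on poly(A) spike scaling, at 1.32, 0.65 and 0.64.

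**Figure D2:**
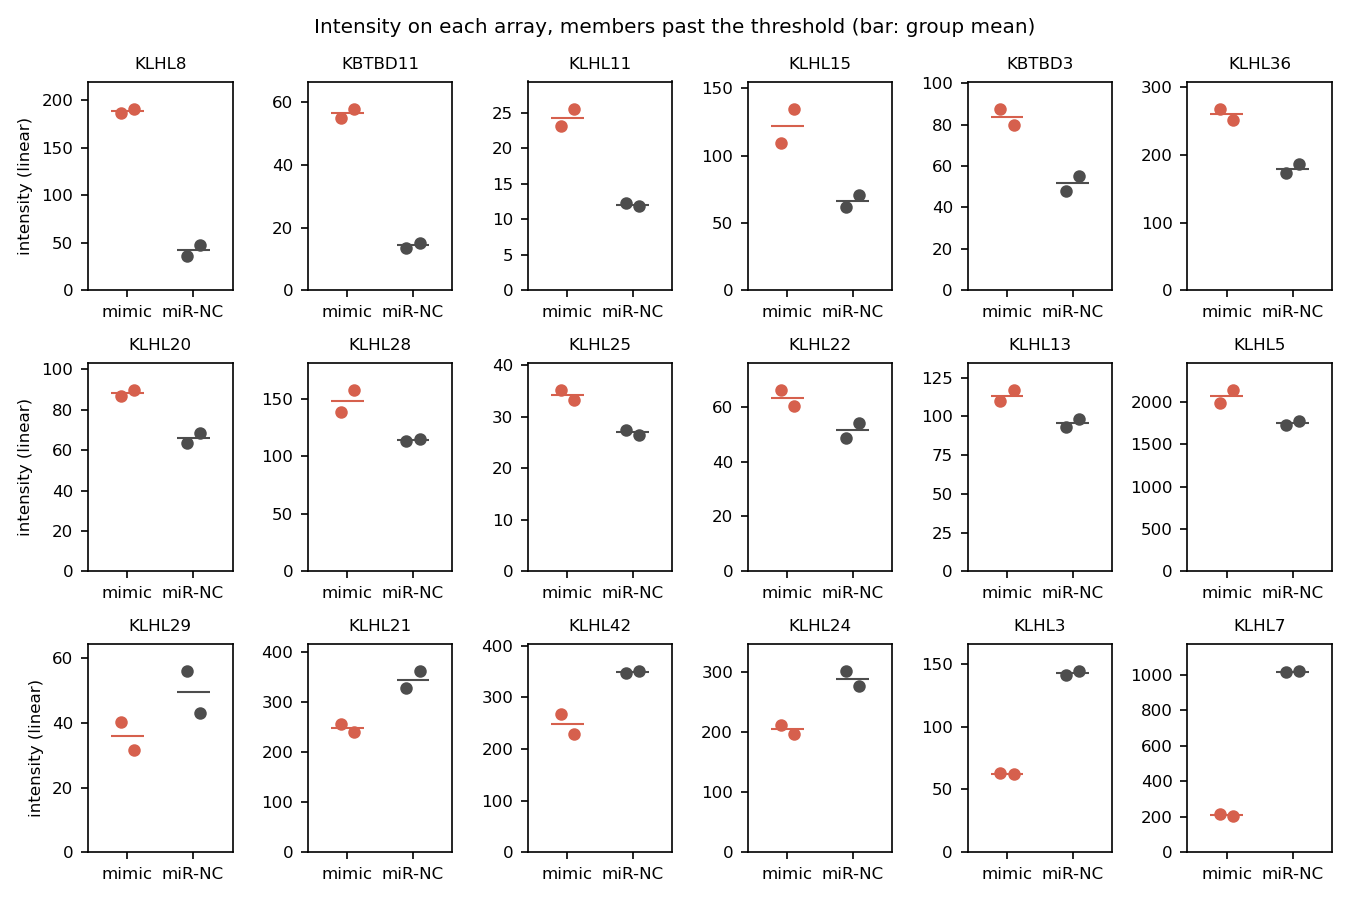
Intensity (linear scale from 0) of the 18 members past the threshold on each array, mimic left and miR-NC right in each panel; points are arrays and bars are group means. The gap between groups is wide against the spread in KLHL8, KBTBD11, KLHL7 and KLHL3, and narrow in KLHL13, KLHL22 and KLHL29. The log2 changes of KLHL5, KLHL13 and KLHL22 are below 0 on poly(A) spike scaling, and that of KLHL42 turns with the choice of probe set.

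Of 7 adaptors with substrates in signalling, trafficking and metabolism, 3 rose and 4 did not pass, beside 55% of all genes called. KLHL15, which marks a regulatory subunit of the phosphatase PP2A, read 109.6 and 135 with the mimic and 62.1 and 70.9 with miR-NC. It rose by 0.87 ± 0.12 (limma adjusted p = 1.10e-04). Its substrate gene PPP2R5B read 116 and 121 with the mimic and 208 and 195 with miR-NC (-0.76 ± 0.08, adjusted p = 1.86e-05). KLHL20, an adaptor of the death kinase DAPK1, of PML and of the autophagy kinase ULK1, read 86.7 and 89.9 with the mimic and 63.5 and 68.5 with miR-NC. It rose by 0.42 ± 0.10 (adjusted p = 0.00435), a call lost without mimic replicate 2 (0.39), on poly(A) spike scaling (0.08) and with the mean of its probe sets (0.18). Transcripts of its substrates went different ways. PML read 82.1 and 78.9 with the mimic and 172 and 179 with miR-NC (-1.12 ± 0.09, adjusted p = 1.57e-06), or -0.35 without probe sets that can bind several transcripts. ULK1 read 47.0 and 43.8 with the mimic and 77.4 and 106 with miR-NC (-0.997 ± 0.143, adjusted p = 1.44e-04). DAPK1 rose, with 492 and 430.5 with the mimic and 310.3 and 342 with miR-NC (0.50 ± 0.08, adjusted p = 3.67e-04), or 0.16 and not called on poly(A) spike scaling.

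KLHL25, the adaptor of the translation repressor 4E-BP1, read 35.2 and 33.3 with the mimic and 27.5 and 26.5 with miR-NC. It rose by 0.34 ± 0.12 (adjusted p = 0.0347), a call lost without mimic replicate 1, mimic replicate 2 or miR-NC replicate 2, and on poly(A) spike scaling, where the change was 0.0057. KBTBD2, which keeps the p85α subunit of PI3 kinase low, read 385 and 392 with the mimic and 354 and 367 with miR-NC, a change of 0.11 that did not pass. Other probe sets of KBTBD2 moved more: the second read 400.0 and 369.9 with the mimic and 241 and 243 with miR-NC, and rose by 0.67 ± 0.07 (adjusted p = 1.15e-05). With the mean of its probe sets KBTBD2 rose by 0.35 (adjusted p = 0.00156). PIK3R1, which encodes p85α, read 576 and 543 with the mimic and 354 and 351.5 with miR-NC (0.67 ± 0.06, adjusted p = 6.78e-06).

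KBTBD6 and KBTBD7, which act together on the RAC activator TIAM1, stood at 0.19 and -0.24 on the log2 scale and did not pass. KLHL12, an adaptor of Dishevelled proteins and of the COPII coat protein SEC31, read 670 and 644 with the mimic and 717 and 663 with miR-NC. Its groups overlapped, with a change of -0.07. Among the genes of its substrates DVL3 read 124 and 112 with the mimic and 311 and 310.2 with miR-NC (-1.40 ± 0.08, adjusted p = 2.04e-07), while the mean of its probe sets gave -0.46. DVL2 had a change of -0.03 that did not pass, and SEC31A, at 1080 and 1054 with the mimic and 1537 and 1626 with miR-NC, fell by 0.57 ± 0.05 (adjusted p = 4.79e-06).

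The strongest rises lay among 18 members with less well known substrates, of which 7 rose, 1 fell, 8 did not pass and 2 were not tested, beside 55% of all genes called. KLHL8 is known from Caenorhabditis elegans, where its counterpart controls the synaptic protein rapsyn. It read 187 and 191 with the mimic and 36.6 and 47.3 with miR-NC, and rose by 2.18 ± 0.12 (limma adjusted p = 1.76e-07), or 4.54-fold, the 55th highest of all genes tested. All 4 of its probe sets rose. The second read 59.4 and 50.6 with the mimic and 28.1 and 23.7 with miR-NC (1.08 ± 0.14). The third read 37.8 and 35.5 with the mimic and 10.1 and 10.8 with miR-NC. The fourth read 31.5 and 31.1 with the mimic and 10.8 and 13.1 with miR-NC. The third and the fourth were above background on no miR-NC array. Without probe sets that can bind several transcripts, the change of KLHL8 was 1.08.

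KBTBD11 read 54.9 and 57.9 with the mimic and 13.5 and 15.2 with miR-NC, where 1 of the 2 arrays was above background. It rose by 1.98 ± 0.13 (adjusted p = 4.70e-07) on the fitted scale, a size that rests on values near background in miR-NC. With 16 added to each intensity before the log it was 1.255 and still past the threshold. Its second probe set read 14.5 and 16.2 with the mimic and 20.1 and 18.4 with miR-NC. That was a change of -0.33 that did not pass (limma adjusted p = 0.0789). The rise therefore rests on 1 probe set, and the mean of both gave 0.82. Both are marked as able to bind several transcripts, so KBTBD11 had no value without such probe sets. KLHL11, known as a target of autoantibodies in patients with germ cell tumours, read 23.1 and 25.6 with the mimic and 12.3 and 11.8 with miR-NC. It was above background on no miR-NC array, and so it was at least 1.58-fold higher with the mimic. The limma test was of the fitted log2 change of 1.01 (adjusted p = 1.14e-04) and not of this bound. That bound sets the mimic mean against the brightest control with no target on each miR-NC array.

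KBTBD3 and KLHL36 rose by less than 2-fold. KBTBD3 read 87.6 and 79.6 with the mimic and 48.1 and 55.3 with miR-NC (0.69 ± 0.11, adjusted p = 3.75e-04). Of its 5 probe sets only the brightest could be tested, so the rise of KBTBD3 rests on that probe set alone. KLHL36 read 268 and 252 with the mimic and 173 and 186 with miR-NC (0.54 ± 0.08, adjusted p = 1.73e-04). KLHL36 was no longer called on poly(A) spike scaling, at 0.20.

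KLHL28 read 138 and 158 with the mimic and 113 and 115 with miR-NC, and rose by 0.38 ± 0.09 (adjusted p = 0.00580). Its dimmer probe set rose too, by 0.69 ± 0.15 (adjusted p = 0.00245). KLHL5 read 1989 and 2140 with the mimic and 1731 and 1775 with miR-NC, close groups that did not overlap. It rose by 0.24 ± 0.05 (adjusted p = 0.00229), which became -0.10 on poly(A) spike scaling. The calls of KLHL28 and KLHL5 were lost without mimic replicate 2, where the changes were 0.28 and 0.18. That of KLHL28 was also lost on poly(A) spike scaling (0.036), and that of KLHL5 without probe sets that can bind several transcripts (0.285, adjusted p = 0.0691).

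KLHL29 was the member of this group that fell. It read 40.2 and 31.6 with the mimic and 56.1 and 43.1 with miR-NC. Both mimic arrays were still below both miR-NC arrays, with a change of -0.46 ± 0.16 (adjusted p = 0.0305), the highest SE among the members called. The call was lost without mimic replicate 1, mimic replicate 2 or miR-NC replicate 1, with changes of -0.63, -0.29 and -0.27, and also in the fit with no trend.

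The 19 members that were tested and did not pass had log2 changes between -0.36 and 0.34. In 12 of them the groups did not overlap (mimic above in 5, below in 7). The 79.4% of all genes tested includes the called ones and is no like measure for these 19. The share among all genes that did not pass was not computed. Those of the less characterised group were KLHL38 at -0.36, KLHL33 at -0.29, KLHL14 at -0.22, KLHL26 at -0.20, KLHL35 at -0.16, KLHL34 at -0.09, KLHL30 at 0.03 and KLHL4 at 0.34. A dim probe set of KLHL4, at 9.27 and 11.4 with the mimic and 18.2 and 18.9 with miR-NC, fell by 0.85 ± 0.16 (adjusted p = 7.17e-04 over probe sets), against the direction of its brightest. KLHL17, which binds actin in neurons, stood at 0.19.

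Adaptors of muscle, neurons, testis and B cells were dim or did not pass the test. Of the muscle adaptors, KLHL31 read 32.7 and 35.4 with the mimic and 40.9 and 38.7 with miR-NC (-0.22, adjusted p = 0.136). KBTBD13, whose mutations cause nemaline myopathy, was above background on no array (0.02). KLHL40 and KLHL41, which stabilise thin filament proteins, were not bright enough to test. The same held for KLHL1 of the brain, KLHL10 of the testis and KLHL6 of B cells, and for KBTBD8, KBTBD12 and KLHL32. These 8 untested members read 4.24 to 9.04 and were above background on no array.

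**Figure D3:**
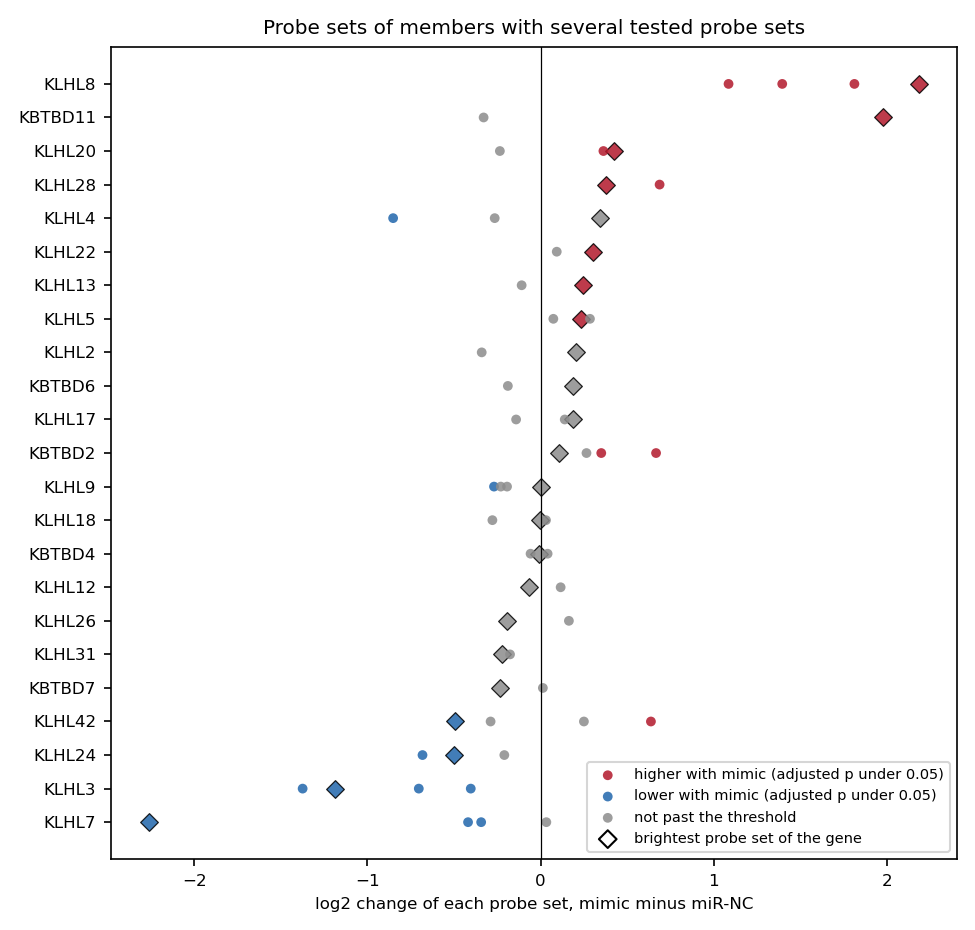
Log2 change, mimic minus miR-NC, of every tested probe set in the 23 members with several tested; diamonds are the brightest probe set of each gene, circles the others, and colour gives the call. The probe sets of KLHL8 all lie to the right and those of KLHL3 to the left, those of KLHL7 spread from -2.26 to 0.03, and those of KLHL42 lie on both sides; on poly(A) spike scaling all points move left by 0.34.

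Across all 79 tested probe sets of the family, 20 rose, 14 fell and 45 did not pass, beside 51% of all probe sets called. Of the 23 members with several tested, KLHL8 and KLHL28 rose and KLHL3 fell with every probe set. In 9 members none passed. A mixture of calls in 1 direction and probe sets that did not pass was found in 10 members, with rises in KBTBD2, KBTBD11, KLHL5, KLHL13, KLHL20 and KLHL22 and falls in KLHL4, KLHL7, KLHL9 and KLHL24. The rises in KLHL5, KLHL13 and KLHL22 are those that turned on poly(A) spike scaling.

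The kelch-BTB genes that carry other names were set beside the family. Of 5 tested, 2 rose and 1 fell, beside 55% of all genes called, with a median change of -0.02. ENC1, first known from the developing nervous system, read 172 and 200.3 with the mimic and 69.9 and 73.85 with miR-NC (1.37 ± 0.10, adjusted p = 1.02e-06). IVNS1ABP, which binds an influenza protein, rose by 0.78 ± 0.09 (adjusted p = 2.49e-05), and IPP fell by 0.31 ± 0.10 (adjusted p = 0.0227). The IPP call was lost without mimic replicate 1, mimic replicate 2 or miR-NC replicate 2 (adjusted p = 0.142, 0.109 and 0.105) and on hybridization spike scaling (0.0611). KEAP1, the adaptor that holds the oxidant response factor NRF2 in check, read 445 and 426 with the mimic and 431 and 449.9 with miR-NC, and its groups overlapped (-0.02, adjusted p = 0.842). On poly(A) spike scaling 2 of these genes rose and 3 fell, where 66.5% of all genes were called.

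The ligase core that all adaptors share, with the neddylation enzymes, the COP9 signalosome and CAND1 that switch it on and off, was examined next. Of 25 genes tested 13 rose, 7 fell and 5 did not pass, with a median change of 0.29. Thus 80% were called beside 55% of all genes. The list is bright, with 24 genes above background on every array. With the filter at the 50th percentile 19 of 24 were called, beside 65.2% of all genes. The part of brightness in this gap was not tested. On poly(A) spike scaling 4 rose and 10 fell, with a median of -0.05, where 66.5% of all genes were called. CUL3 itself read 1548 and 1552 with the mimic and 1100 and 1358 with miR-NC. It rose by 0.34 ± 0.08 (adjusted p = 0.00440), a call lost without mimic replicate 1 or mimic replicate 2, in the fit with no trend and on poly(A) spike scaling, where the change was 0.0038. RBX1 read 2237 and 2357 with the mimic and 1588 and 1761 with miR-NC (0.46 ± 0.06, adjusted p = 5.07e-05), or 0.12 and not called on poly(A) spike scaling. DCUN1D1, which promotes attachment of NEDD8 to cullins, read 603 and 545 with the mimic and 273 and 320 with miR-NC (0.95 ± 0.09, adjusted p = 4.43e-06). The signalosome subunits COPS8 and COPS4 rose by 0.84 ± 0.06 and 0.63 ± 0.08, and CAND1, which exchanges adaptors, by 0.63 ± 0.07. NEDD8, the modifier itself, fell, with 4232 and 4147 with the mimic and 5911 and 5742 with miR-NC (-0.48 ± 0.04, adjusted p = 2.02e-06).

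Of 20 other BTB adaptors of CUL3, 7 rose, 10 fell and 3 did not pass, with a median change of -0.14. Thus 85% were called beside 55% of all genes (28.1% higher and 26.9% lower). All 20 were above background on every array. With the filter at the 50th percentile 17 of 19 were called, beside 65.2% of all genes. On poly(A) spike scaling 1 rose and 10 fell, where 66.5% of all genes were called, 1573 higher and 7818 lower. TNFAIP1, an adaptor for the GTPase RHOA, read 191 and 173 with the mimic and 413 and 418.5 with miR-NC (-1.19 ± 0.08, adjusted p = 3.47e-07). KCTD7 and KCTD2 fell by 1.03 ± 0.15 and 0.98 ± 0.09. SPOPL, a relative of the adaptor SPOP, read 139.5 and 149 with the mimic and 52.4 and 74.8 with miR-NC (1.20 ± 0.15, adjusted p = 4.23e-05), but with the mean of its probe sets the change was 0.17 and did not pass (adjusted p = 0.236). Of 30 substrates and partners of the family 9 rose, 16 fell and 5 did not pass, with a median of -0.16. That is 83.3% called beside 55% of all genes. All 30 were above background on every array. With the filter at the 50th percentile 24 of 29 were called, beside 65.2% of all genes. On poly(A) spike scaling 5 rose and 19 fell, where 66.5% of all genes were called. By brightest probe set the largest of these changes were those of AURKA, DVL3, PML and ULK1, of which DVL3 and PML were smaller with other probe set choices.

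**Figure D4:**
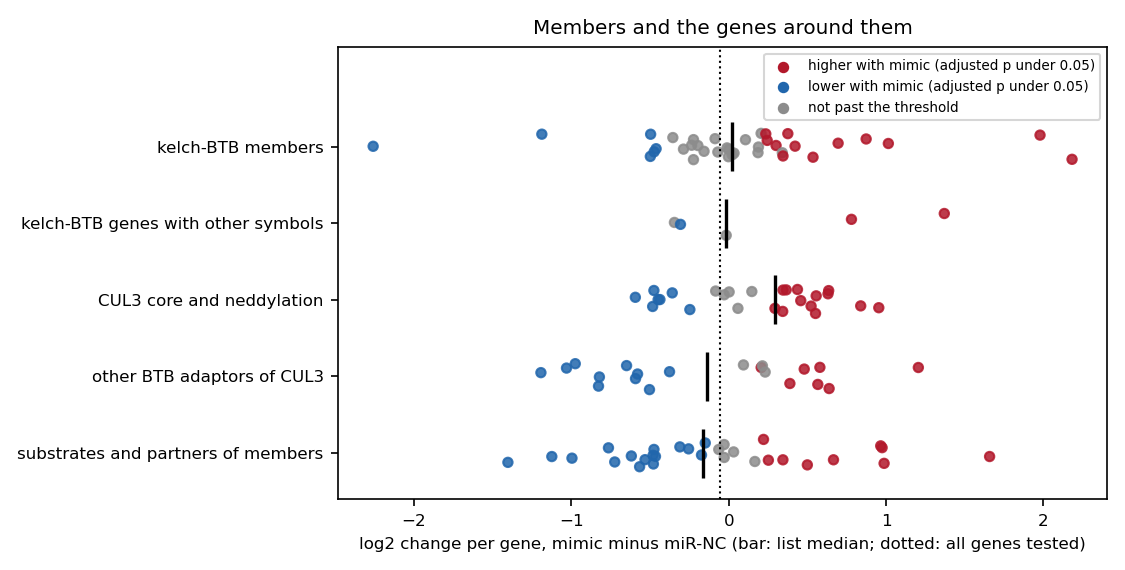
Log2 change, mimic minus miR-NC, of each tested gene in the family and the surrounding lists; points are genes (spread vertically for visibility), colour gives the call, bars are list medians and the dotted line is the median of all genes tested. The family spreads from -2.26 to 2.18 around a median of 0.02 and the ligase core has a median of 0.29; on poly(A) spike scaling all points move left by 0.34, the dotted line included.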

How the data were processed

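The 4 PrimeView arrays of SCC-9 total RNA were grouped by their titles. The deposited values are an intensity for each probe set, made with RMA per the submitters' processing notes. They were read as linear RMA intensity values and log2 was taken. RMA brings arrays to 1 distribution, so a shift of the whole transcriptome is not seen. Of 49395 probe sets, the platform annotation gives 44988 a single symbol, 1832 several and 2473 none. Genes whose brightest probe set had a mean above the 30th percentile (intensity 12.0) were tested with limma 3.58.1 in R 4.3.3 (lmFit, eBayes with trend, two-sided, Benjamini-Hochberg over 14122 genes or, for probe sets, 34505, threshold 0.05). The fit had 2 residual and 8.35 prior degrees of freedom. Errors are SEs of log2 changes. The test was first tried on simulated data.

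Members and lists were chosen with earlier results of these data known. Every member is named, with the 4 largest changes of each other list, CUL3, RBX1 and KEAP1. Role groups, sequences, NEDD8 and the substrates other than AURKA, DVL3, PML and ULK1 were chosen after their values were seen. Alternatives were other normalizations, scalings, filters, offsets, probe set choices, spread estimates and thresholds, a replicate block and leaving out each array. Hybridization spike scaling and the filter at the controls with no target were added after seeing the data. Protein sequences were not used here.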

Additional observations from a re-analysis of the deposited data

Results flagged for a closer look

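KLHL23 shares its probe sets with the readthrough gene PHOSPHO2-KLHL23 and therefore counted as no member, but all 3 shared probe sets gave a signal above the controls with no target on every array. The first read 114 and 115 with the mimic and 21.7 and 31.5 with miR-NC, a log2 change of 2.13 ± 0.16 (limma adjusted p = 3.95e-07 over probe sets). The second read 89.6 and 94.9 with the mimic and 24.4 and 28.4 with miR-NC, a change of 1.81 ± 0.12 (adjusted p = 2.05e-07). The third read 47.4 and 55.1 with the mimic and 25.7 and 21.3 with miR-NC, a change of 1.13 ± 0.14 (adjusted p = 3.11e-05). Which of the genes the signal comes from was not tested.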

How the results depend on the processing

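Over the 18 alternatives, KLHL3, KLHL7, KLHL8, KLHL11, KLHL15, KLHL21, KLHL24, KBTBD3 and KBTBD11 kept their call wherever they were tested, and KLHL36 did so on all but poly(A) spike scaling. The dim filter, the mean of all probe sets and the exclusion of cross-hybridizing probe sets left some members without a value. On poly(A) spike scaling 5 members rose and 18 fell, against 12 and 6 as reported, so 21.7% of the calls were higher in place of 66.7%. Over all genes the share of higher calls was 16.8% in place of 51.1%, with 1573 higher and 7818 lower. On that scale 5 kelch-BTB genes with other symbols and 11 other BTB adaptors were called, against 3 and 17, and KLHL9 was -0.34, KLHL5 -0.10, KLHL13 -0.095 and KLHL22 -0.038. The shift of 0.34 is the construction of that scale, and the cause of the spike difference was not tested. KLHL42 was 0.025 with the mean of its probe sets and 0.64 without cross-hybridizing ones. Leaving out 1 array gave 11 to 20 members changed, 6 to 13 of them higher, 16 to 25 substrates and partners and 20 to 35 probe sets of members. Among these fits, calls were fewest without mimic replicate 2 and most without miR-NC replicate 2, both among members and over all genes. The range among members thus went with that of the whole array. In each of these fits the share of members called was below the share of all genes, as with all arrays. KLHL5, KLHL13, KLHL20, KLHL22, KLHL25, KLHL28 and KLHL29 lost their call without at least 1 array. A fit without 1 array assumes that the lone sample varies like the other group. With the replicate block 20 members changed, 12 higher and 8 lower, and 8253 genes. Deviations of same-numbered arrays correlated at 0.08, which does not show that the numbers pair the samples. Among the 19 members not past the threshold 15 passed under some alternative. KLHL9, KLHL12, KLHL14, KLHL18, KLHL31, KLHL33, KLHL34, KLHL35 and KBTBD4 did so only on poly(A) spike scaling. There every change is 0.34 lower and 66.5% of all genes were called. The share of all genes not past that passed under some alternative was not computed. The median SE of a log2 change over all genes tested was 0.0952.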
